A study of Mus musculus with 9 samples.

Results

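Immunoglobulin genes were followed in RNA of regulatory T cells (Tregs) sorted from 3 organs of mice with an injured heart. The rows taken were those named as a heavy constant gene, as a V, D or J segment of the heavy locus, as Igkc or a V or J segment of the kappa locus, or as a V, J or constant gene of the lambda locus, with at least 1000 read counts summed over the 9 libraries. Of 49510 rows of the count table, 395 carried such a name and 108 reached the minimum. These members are 7 of 8 heavy constant genes, the 1 kappa constant gene, 3 of 4 lambda constant genes, 28 of 185 heavy V segments, 65 of 160 kappa V segments, all 3 lambda V segments and 1 of 5 lambda J segments. None of the 20 heavy D, 4 heavy J and 5 kappa J segments reached it. The heart group holds Tregs of the injured heart, the MLN group Tregs of the mediastinal lymph node that drains the heart, and the spleen group Tregs of the spleen, with 3 libraries each. All 9 libraries come from Foxp3-GFP transgenic mice, in which a green fluorescent protein marks cells that express Foxp3, the lineage factor of Tregs. At 8 weeks of age and 3 days after I/R (ischemia/reperfusion) injury their Tregs were taken, so no group is uninjured. Sorting used magnetic beads first and flow cytometry second. Whether each library stands for its own animal or pool is not in the labels, so the p-values measure the spread between these libraries, part of which may be technical.

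An antibody has a heavy chain and a light chain of kappa or lambda type. In developing B cells a V segment is cut and joined to D and J segments at the heavy locus, or to a J segment at a light locus, and the joined exon is spliced to a constant gene, so that all progeny of a B cell carry the same V segments. The heavy constant genes set the class: Ighm and Ighd are read in cells that have not switched, and Ighg1, Ighg2b, Ighg2c, Ighg3 and Igha follow after switch recombination. T cells build their own receptor from other loci, and immunoglobulin RNA is known chiefly from B cells and, at very high levels, from plasma cells.

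The V segments on which the values below turn end with the codon of a conserved cysteine and a few further bases, after which the joined J or D bases would follow. The last 45 bases of the germline V exon are shown for the leading kappa V segments except Igkv1-117, the leader of heart 1, for the evenly read Igkv6-23 and for 4 leading heavy V segments, to show how the segments that dominated different libraries differ. Capitals mark the cysteine codon.
Igkv12-44: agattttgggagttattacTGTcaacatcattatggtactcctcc
Igkv12-46: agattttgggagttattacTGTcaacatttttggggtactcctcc
Igkv19-93: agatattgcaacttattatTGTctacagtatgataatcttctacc
Igkv17-127: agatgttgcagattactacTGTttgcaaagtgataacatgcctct
Igkv1-135: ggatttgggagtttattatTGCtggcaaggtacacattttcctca
Igkv4-57: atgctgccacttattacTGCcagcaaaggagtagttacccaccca
Igkv4-59: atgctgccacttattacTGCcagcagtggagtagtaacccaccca
Igkv6-23: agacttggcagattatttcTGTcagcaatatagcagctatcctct
Ighv1-18: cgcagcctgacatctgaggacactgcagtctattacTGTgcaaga
Ighv1-26: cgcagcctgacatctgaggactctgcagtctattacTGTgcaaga
Ighv9-3: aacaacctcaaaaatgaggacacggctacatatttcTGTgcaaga
Ighv5-9-1: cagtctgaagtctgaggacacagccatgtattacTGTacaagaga
The kappa segments keep 23 or 25 germline bases after the cysteine codon, and the heavy segments 6 or 8, because the D segment supplies most of the loop there. The sequences are those of the GENCODE vM21 transcripts on GRCm38, the assembly that mm10 names. The kappa stretches lie on chromosome 6, for example chr6:69814631-69814675 on the minus strand for Igkv12-44 and chr6:67610464-67610508 on the plus strand for Igkv1-135, and the heavy stretches on the minus strand of chromosome 12, for example chr12:114140692-114140736 for Ighv9-3.

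Libraries held 156194012 to 267520538 counts. Heart 2, MLN 3 and spleen 3 stood apart from the other libraries of their organ, with the highest scaling factors (1.11, 1.17 and 1.24). Foxp3 was at 8.74, 37.9 and 0.239 CPM (counts scaled to a common library size) in the heart, at 42.3, 41.7 and 46.2 CPM in the MLN and at 31.1, 32.6 and 187 CPM in the spleen, so heart 3 was close to 0 for the factor that defines its labelled cell type. The T cell receptor subunit Cd3e was read in all 9 libraries, at 29.2 to 50 CPM in the heart, 53.7 to 78.8 CPM in the MLN and 97.6 to 154 CPM in the spleen. Of the B cell markers, the kinase Blk had no count in any heart library and stood at 13.1 to 72.2 CPM in the MLN and 18.2 to 78.2 CPM in the spleen. Of the 20 listed markers 7, 5 and 11 had no count in heart 1, heart 2 and heart 3. Others were read in every heart library, such as Blnk (130, 51.2 and 32.7 CPM) and Cd37 (29.3, 44.9 and 26.0 CPM). Cd72 had a mean of 28.6 CPM in the heart, 19.2 CPM in the MLN and 26.3 CPM in the spleen. CPM divide counts by the TMM-scaled library total, and libraries of an organ are given in the order 1, 2 and 3.

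Members took 0.00477%, 0.0143% and 0.0162% of all counts in the heart, 0.481%, 0.154% and 0.391% in the MLN, and 1.35%, 2.37% and 2.32% in the spleen. No heart library reached the lowest MLN library, and no MLN library reached the lowest spleen library. The means were 0.0118 ± 0.00614% in the heart, 0.342 ± 0.169% in the MLN and 2.01 ± 0.576% in the spleen (SD, n = 3 each). Over all 395 named rows, without the minimum, the shares were 0.00481% to 0.0165% in the heart, 0.156% to 0.482% in the MLN and 1.35% to 2.37% in the spleen. The minimum left the summed share nearly unchanged but not every class: it left out all 674 heavy V counts of heart 3, 79 of 118 in heart 1 and 2446 of 7220 in MLN 2. Fewer cells that carry such RNA and less of it per cell cannot be told apart in bulk libraries. Over the same libraries the summed share of 20 B cell marker genes, none of them a member, was 0.0127% to 0.0284% in the heart, 0.106% to 0.596% in the MLN and 0.274% to 0.327% in the spleen. The genes of this sum had unlike heart levels. Blnk and Ebf1 were at a mean of 71.2 and 41.0 CPM in the heart, and Cd79a and Ms4a1 at 0.712 and 1.25 CPM. The part of B cell RNA in the organ differences of immunoglobulin counts was not tested.

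Ighm (ENSMUSG00000076617, chr12:113418558-113422730, minus strand), the heavy chain of IgM, was lower in the heart libraries than in those of both lymphoid organs. It stood at 45.2, 124 and 64.2 CPM in the heart, at 472, 514 and 668 CPM in the MLN and at 2629.8, 3842 and 3322 CPM in the spleen. All libraries kept the order of their organs, without overlap. Against the spleen the heart level was 41.9-fold lower (log2 fold change -5.39, SE 0.50, edgeR quasi-likelihood adjusted p = 0.0238). Against the MLN it was 7.08-fold lower (log2 fold change -2.82, SE 0.44, edgeR adjusted p = 0.0319). The MLN level was 5.92-fold lower than that of the spleen (log2 fold change -2.57, SE 0.44), and this did not pass the test (edgeR adjusted p = 0.427). Without heart 2, MLN 3 and spleen 3 the log2 fold change against the spleen was -5.88 (edgeR adjusted p = 0.0741) and against the MLN -3.15 (edgeR adjusted p = 0.100), on 2 libraries an organ.

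Ighg2b (chr12:113302965-113307933, minus strand), the heavy chain of IgG2b, had no count in any heart library. It reached 42.8, 150.2 and 108 CPM in the MLN and 3.24, 2.53 and 8.04 CPM in the spleen. Set against the limit that 3 counts per library allow, the mean heart level was at least 7123-fold lower than that of the MLN (edgeR adjusted p = 0.0152) and at least 327-fold lower than that of the spleen (edgeR adjusted p = 0.0238). Ighg2b was the only heavy constant member higher in each MLN library than in each spleen library, 21.8-fold by the fit (log2 fold change 4.45, SE 0.79). That difference between MLN and spleen did not pass the edgeR test (adjusted p = 0.684).

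Ighg1 and Igha, the heavy chains of IgG1 and of the mucosal class IgA, were each dominated by spleen 3. Ighg1 was at 0.117, 0.609 and 0 CPM in the heart, at 686, 12.2 and 6.44 CPM in the MLN and at 0.628, 0.561 and 6514 CPM in the spleen. Spleen 3 alone held 90.2% of its summed CPM, and MLN 1 stood far above the other MLN libraries. Igha was at 0, 0.179 and 14.4 CPM in the heart, at 0, 0.422 and 22.2 CPM in the MLN and at 25.4, 1.81 and 1335 CPM in the spleen. Spleen 3 held 95.4% of the summed Igha CPM, and heart 3 overlapped both lymphoid organs. Neither gene passed the test in any comparison (edgeR adjusted p = 0.243 and 0.539 for the heart against the spleen, 0.301 and 0.968 against the MLN). The direction of Igha rests on 1 library: its log2 fold change of the heart over the MLN was -0.64, but 4.51 without MLN 3 and 5.11 without heart 2, MLN 3 and spleen 3 together (edgeR adjusted p = 0.646 and 0.627).

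The other heavy constant members were low in the heart and spread widely in the lymphoid organs. Ighd, the heavy chain of IgD on unswitched B cells, was at 0.224, 0.0239 and 1.40 CPM in the heart, at 22.3, 16.8 and 125 CPM in the MLN and at 50.4, 24.1 and 55.5 CPM in the spleen. Ighg2c had no count in heart 1 and heart 3 and 0.0876 CPM in heart 2, against 17.8, 67.8 and 162 CPM in the MLN and 0.545, 96.6 and 39.3 CPM in the spleen. Ighg3 had 4 counts in the heart in all, up to 14.1 CPM in the MLN and up to 6.43 CPM in the spleen, with none in spleen 2. Heart libraries lay below all MLN libraries for these 3 genes, and below all spleen libraries for Ighd and Ighg2c. The tests did not pass, with edgeR adjusted p = 0.108 (Ighd), 0.105 (Ighg2c) and 0.224 (Ighg3) against the spleen and 0.0856, 0.0800 and 0.168 against the MLN. The eighth gene, Ighe of the IgE class, stayed under the minimum.

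**Figure D1:**
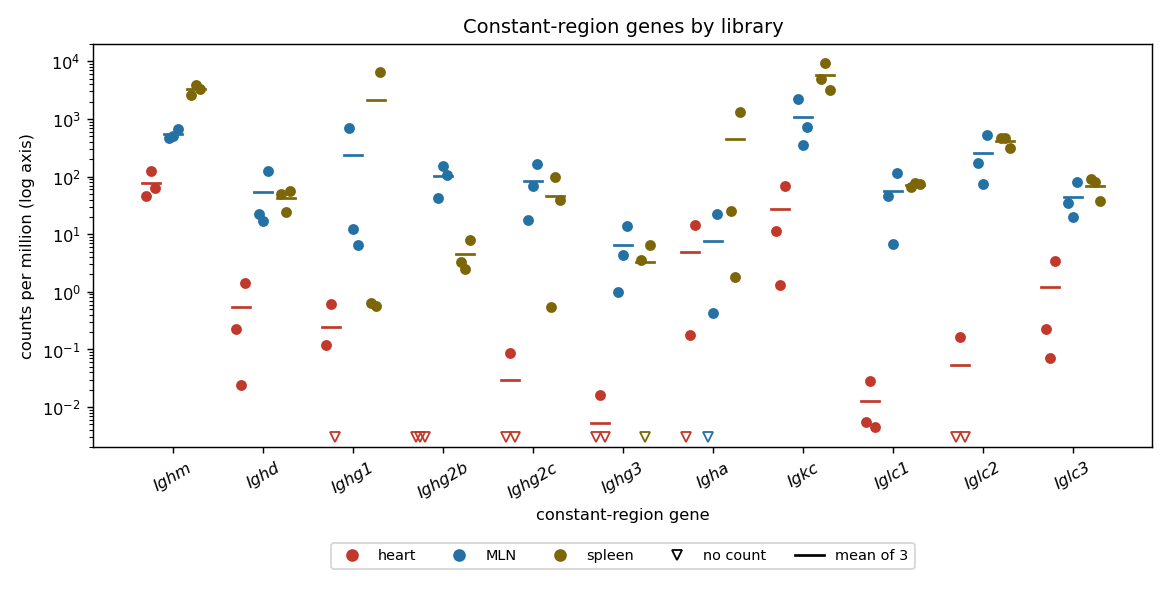
CPM of the 11 constant genes (vertical, log axis) by gene (horizontal) and organ, a point per library, a line for the mean of 3 and an open triangle where a library has no count. Ighm separates the 3 organs without overlap, Ighg2b is empty in the heart, and the means of Ighg1 and Igha in the spleen rest on 1 library at 6514 and 1335 CPM.

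Igkc (chr6:70726435-70726966, plus strand), the constant gene of all kappa light chains, was the member with the most CPM per kb of exon over the 9 libraries. It stood at 11.6, 1.34 and 68.4 CPM in the heart, at 2209, 358 and 734 CPM in the MLN and at 4963, 9406 and 3199.8 CPM in the spleen. The organs did not overlap, yet the heart libraries differed among themselves by more than an order of magnitude. The fitted heart level was 216-fold below that of the spleen (log2 fold change -7.76, SE 1.58) and 40.6-fold below that of the MLN (log2 fold change -5.34, SE 1.42), and neither passed (edgeR adjusted p = 0.0684 and 0.106).

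Of the 3 lambda constant genes 2 passed against both lymphoid organs. Iglc1 (chr16:19061618-19062071, minus strand) was at 0.00559, 0.0279 and 0.00451 CPM in the heart, which is 9 counts in all, at 45.5, 6.64 and 115 CPM in the MLN and at 64.8, 78.7 and 75.0 CPM in the spleen. The fitted heart level was 5751-fold below the spleen level (log2 SE 1.48, edgeR adjusted p = 0.0238) and 4407-fold below the MLN level (log2 SE 1.46, edgeR adjusted p = 0.0193). The spleen libraries of this gene lay within 64.8 to 78.7 CPM, the closest agreement among the constant genes.

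Iglc2 (chr16:19198396-19200351, minus strand) had counts in 1 heart library, with 0.163 CPM in heart 2, against 172, 74.8 and 522 CPM in the MLN and 459.9, 472 and 308 CPM in the spleen. Its fitted log2 fold change was -12.84 for the heart over the spleen (SE 2.16, edgeR adjusted p = 0.0444) and -12.15 over the MLN (SE 2.11, edgeR adjusted p = 0.0396). Iglc3, whose last coding exon is 96.2% identical to that of Iglc2, was read in every heart library, at 0.229, 0.0717 and 3.37 CPM, and at 19.7 to 80.7 CPM in the MLN and 38.3 to 91.3 CPM in the spleen. It did not pass (edgeR adjusted p = 0.110 and 0.116). How reads were split between these 2 near-identical genes is not given in the sources used here, so their separate values are uncertain.

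Among lambda V segments Iglv1 (chr16:19085017-19085500, minus strand) passed against both lymphoid organs. It was at 0.0112, 0.0597 and 0.492 CPM in the heart, at 57.7, 18.1 and 67.7 CPM in the MLN and at 111, 194 and 106 CPM in the spleen, without overlap between any pair of organs. The heart level was 729-fold lower than that of the spleen (log2 fold change -9.50, SE 1.54, edgeR adjusted p = 0.0399) and 255-fold lower than that of the MLN (log2 fold change -7.99, SE 1.45, edgeR adjusted p = 0.0429). Iglv2 had 5 counts in the heart, all in heart 2, against 6.5, 0.409 and 122 CPM in the MLN and 0.410, 3.56 and 42.9 CPM in the spleen. Iglv3 had no heart count, against 2.5, 0.714 and 3.20 CPM in the MLN and 6.31, 15.8 and 1.63 CPM in the spleen, and stayed just above the threshold (edgeR adjusted p = 0.0502 and 0.0518 against the MLN and the spleen). Iglj2, the only J member, had 1 count in the heart and reached 2.64 CPM in MLN 3 and 3.36 CPM in spleen 2.

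The last 150 bases of Iglv1 and Iglv2 show how close the pair is, with the 5 differing bases in capitals.
Iglv1: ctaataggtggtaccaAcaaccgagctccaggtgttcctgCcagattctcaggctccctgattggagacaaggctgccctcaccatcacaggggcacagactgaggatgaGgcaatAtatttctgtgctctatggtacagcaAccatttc
Iglv2: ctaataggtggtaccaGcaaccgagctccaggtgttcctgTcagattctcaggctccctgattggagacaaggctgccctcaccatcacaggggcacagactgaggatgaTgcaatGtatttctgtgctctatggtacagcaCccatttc
Over their V exons of 305 bases the segments differ at 9 positions (97.0% identity). They lie at chr16:19085017-19085166 and chr16:19260401-19260550 on the minus strand. Iglv1 led the lambda V counts in 8 libraries, and MLN 3 was the exception, with 63.3% of them in Iglv2.

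The class makeup of the heavy chain differed widely among the libraries of an organ. Per kb of exon, switched genes (Ighg1, Ighg2b, Ighg2c, Ighg3 and Igha) made up 0.188%, 0.565% and 13.4% of the heavy constant level in the heart, 52.9%, 28.8% and 29.9% in the MLN, and 0.894%, 3.51% and 63.0% in the spleen. In counts the shares were 0.258%, 0.713% and 18.0% in the heart, 60.2%, 30.7% and 28.3% in the MLN, and 1.23%, 2.56% and 70.1% in the spleen. The MLN libraries thus all lay between the 2 low spleen libraries and the high one. In heart 3 the switched counts were Igha alone, 3186 of 17727 heavy constant counts (18.0%, 95% Wilson interval 17.4% to 18.5%). In MLN 1 and spleen 3 they were mostly Ighg1, at 47.5% and 51.9% per kb, and in MLN 2 and MLN 3 Ighg2b (14.2% and 6.73%) and Ighg2c (12.9% and 20.4%). The intervals here and below cover counting error only, because amplified reads without molecular identifiers are not independent molecules.

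Lambda constant genes took, per kb of exon, 2.34%, 16.2% and 5.5% of the light-chain constant level in the heart, 9.94%, 21.2% and 48.2% in the MLN, and 10.5%, 5.95% and 11.1% in the spleen. The organs overlapped, and MLN 3 was the library closest to equal kappa and lambda levels. Per kb of exon, the light-chain constant level was 0.923, 0.0453 and 3.39 times the heavy constant level in the heart, 8.28, 2.16 and 4.45 times in the MLN and 7.27, 8.85 and 1.4 times in the spleen. Heart 2 was the library with the least light-chain signal for its heavy-chain signal, with 402 light and 31438 heavy constant counts.

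The number of heavy V counts per 1000 heavy constant counts depended on the minimum of 1000 counts. Over all named heavy V rows it was 14.5, 1.37 and 38.0 in the heart, 84.3, 42.1 and 66.1 in the MLN and 86.1, 91.3 and 122 in the spleen. Heart 3 then lay just below MLN 2, and the heart libraries stayed the 3 lowest. Over members alone the values were 4.79, 1.27 and 0 in the heart, 77.2, 28.0 and 48.8 in the MLN and 80.7, 89.3 and 121 in the spleen. The 674 heavy V counts of heart 3 lie on rows under the minimum, 465 of them on Ighv1-78, which has no count in any other library, and 206 on Ighv1-47. For the kappa locus the same measure overlapped, with 518, 1271 and 640 kappa V counts per 1000 Igkc counts in the heart, 478, 718 and 732 in the MLN and 983, 936 and 717 in the spleen. Per kb of exon, Ighm made up 38.2%, 88.3% and 11.9% of the level of all members in the heart, 2.94%, 13.2% and 6.5% in the MLN and 5.46%, 4.43% and 7.98% in the spleen, so that only heart 3 lay inside the lymphoid range. The source of the Ighm reads in the heart was not tested.

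**Figure D2:**
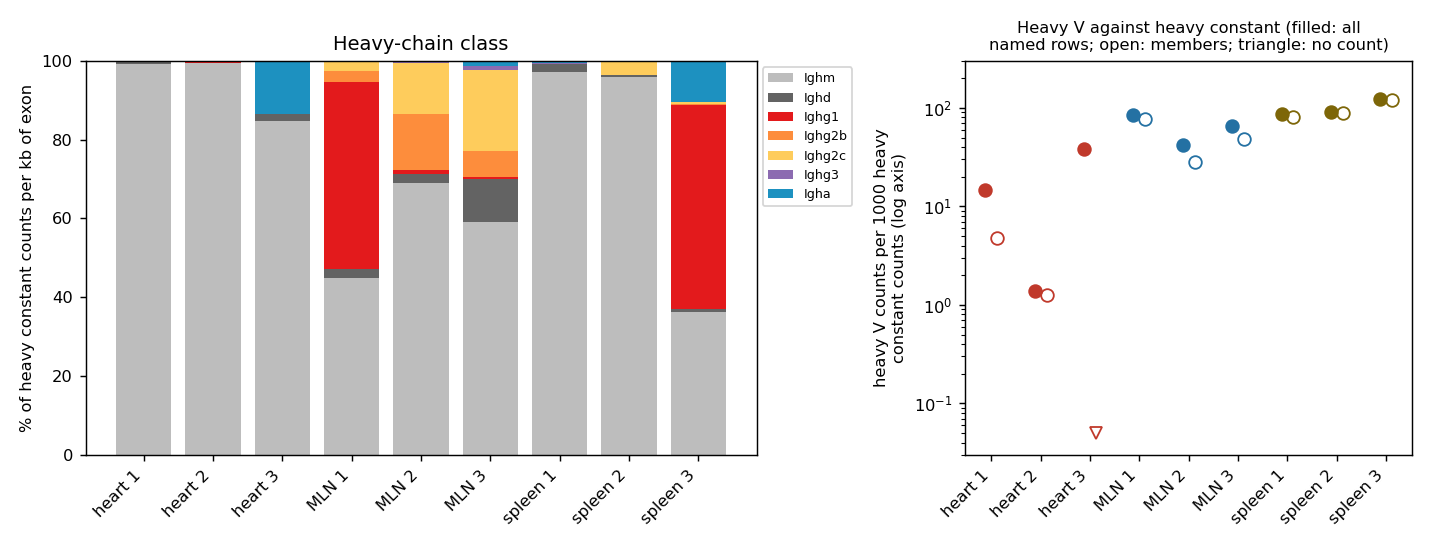
Left, stacked bars of each heavy constant gene's share (%) of the heavy constant level per kb of exon by library. Right, heavy V counts per 1000 heavy constant counts (log axis) by library, filled for all named heavy V rows and open for members alone, with an open triangle for heart 3, where no heavy V member has a count. Ighm fills over 80% of the bar in all 3 heart libraries and in spleen 1 and 2, and the filled heart points lie at 1.37 to 38.0, against 42.1 and above in the MLN and spleen.

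Over all members, 99 passed the filter on low counts and were tested. Against the spleen 6 members were called lower in the heart and 0 higher (Ighm, Ighg2b, Iglc1, Iglc2, Iglv1 and Igkv6-23), where 0.175% of all 16609 genes tested were called lower and 0.614% higher. Against the MLN 9 were called lower and 0 higher, the same 6 with Igkv5-48, Igkv10-94 and Igkv17-121, beside a background of 0.283% lower and 1.1% higher. The calls on both share the heart libraries. At an unadjusted p below 0.05, 88 members were lower than in the spleen and 80 lower than in the MLN, against 4.62% and 5.23% of all genes, and 0 were higher in either comparison, against 9.01% and 10.3% of genes. The minimum of the rule was met by most members through the lymphoid libraries (78 reached it on the spleen alone, 70 on the MLN alone and 4 on the heart alone), so most members were chosen through groups in which they are high, and these counts are a description.

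In 56 of the 108 members all heart libraries lay below all spleen libraries, and in 65 below all MLN libraries, against 6.9% and 11.2% of all genes tested. No member was higher in all heart libraries, against 12.4% and 14.9% of genes. Most members were chosen through the lymphoid libraries, where they are high, so these counts and the medians below are a description too. The 108 members include 9 that were not tested, while the shares of genes cover tested genes only. The median fitted log2 fold change of tested members was -11.66 for the heart over the spleen and -10.68 over the MLN, against 0.02 and 0.12 for all genes tested. These medians hold many members with an empty group, whose fitted values depend on the prior count: 65 members had no count in any heart library, 64 of them V segments. Counts in all 6 lymphoid libraries were found for 48 members, and in all 9 libraries for 6 (Ighm, Ighd, Igkc, Iglv1, Iglc1 and Iglc3). The calls rest on 3 libraries an organ. Without heart 3, or without any of the spleen libraries, none of the 6 calls against the spleen was left, and 1 was left without heart 1 or without heart 2. Against the MLN none of the 9 was left without heart 3 or without MLN 1, 2 without heart 1, 3 without MLN 2 or MLN 3, 4 without spleen 1 or spleen 2, and 5 without heart 2 or spleen 3. Without heart 2, MLN 3 and spleen 3 together, 0 were called in either comparison.

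Between the MLN and the spleen edgeR called 0 members and 0% of all genes in either direction. At an unadjusted p below 0.05, 11 members were lower and 4 higher in the MLN, against 3.35% and 2.4% of genes, and DESeq2 called 3 lower (Ighm, Igkv1-117 and Igkv14-126) and 2 higher (Ighg2b and Igkv5-48). The DESeq2 adjusted p was 1.36e-06 for Ighm (log2 fold change -2.61) and 3.86e-06 for Ighg2b (log2 fold change 4.39). The share of all genes that DESeq2 called is not given here. All MLN libraries lay below all spleen libraries for 7 members, Ighm, Igkc and Iglv1 among them, and above for 6, Ighg2b, Igkv6-23 and Igkv5-48 among them, against 4.56% and 4.52% of genes. The median log2 fold change of tested members was -0.64, against 0.00 for all genes.

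**Figure D3:**
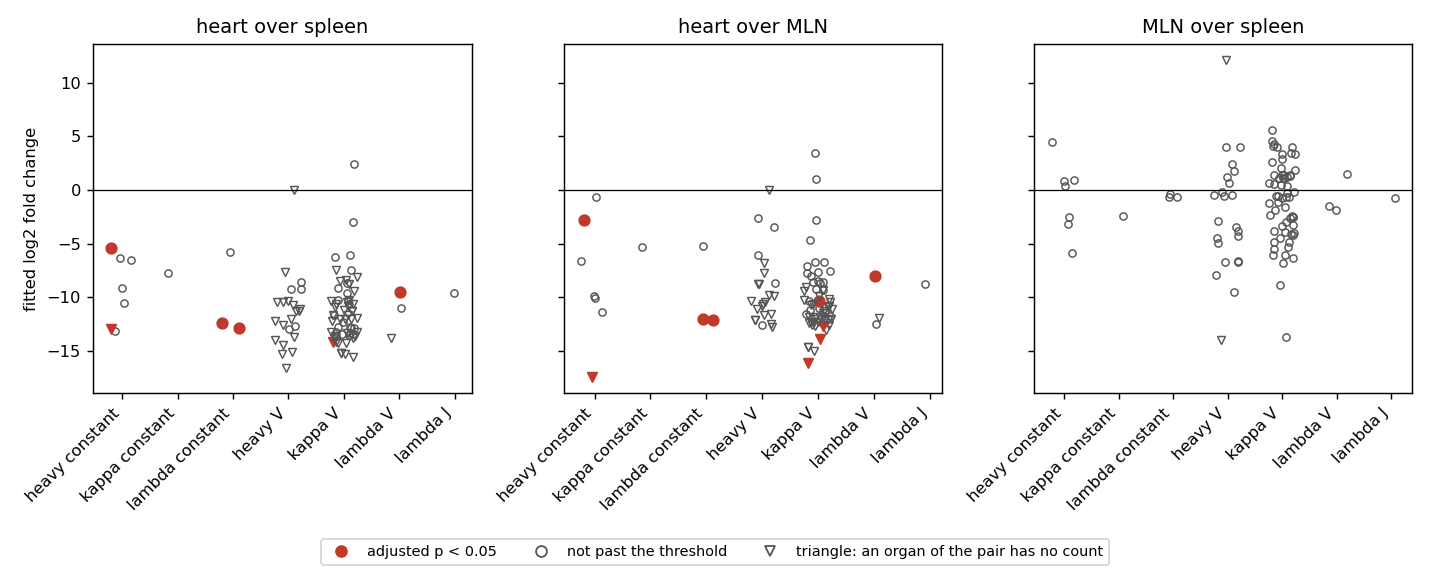
Fitted log2 fold change (vertical) of each tested member by class (horizontal), for the heart over the spleen, the heart over the MLN and the MLN over the spleen. Filled red marks passed the edgeR test, and triangles are members with no count in an organ of the pair, whose fitted value is no bound. Nearly all marks of both heart panels lie below 0, and the MLN and spleen panel has marks on both sides with none past the threshold.

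Igkv6-23 (chr6:70260409-70260955, minus strand) was the kappa V segment read most evenly among those called. It had no heart count, against 53.2, 36.1 and 33.6 CPM in the MLN and 18.5, 6.93 and 4.83 CPM in the spleen. All MLN libraries lay above all spleen libraries. The heart was at least 2907-fold lower than the MLN (edgeR adjusted p = 0.0169) and at least 717-fold lower than the spleen (edgeR adjusted p = 0.0238).

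The 3 further kappa V segments called against the MLN were also read in all 6 lymphoid libraries. Igkv5-48 had 7 counts in the heart in all, against 22.9, 17.0 and 7.22 CPM in the MLN and 0.263, 0.575 and 1.92 CPM in the spleen (heart over MLN log2 fold change -10.37, SE 1.89, edgeR adjusted p = 0.0440). Igkv17-121 had no heart count, against 18.8, 1.87 and 4.58 CPM in the MLN and 1.03, 3.84 and 2.23 CPM in the spleen, with a heart level at least 597-fold below that of the MLN (edgeR adjusted p = 0.0421). Igkv10-94 had none either, against 6.88, 1.39 and 2.53 CPM in the MLN and 1.22, 1.92 and 1.15 CPM in the spleen, with a heart level at least 255-fold below that of the MLN (edgeR adjusted p = 0.0429). These 3 are far from the most abundant V segments, and none of the 6 heavy and 8 kappa V segments with the highest mean CPM was called by edgeR in any comparison.

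The most abundant V segments were each carried by 1 or 2 libraries. Igkv4-57 was at 0, 0.346 and 0 CPM in the heart, at 36.4, 25.3 and 15.9 CPM in the MLN and at 2.80, 3424 and 9.93 CPM in the spleen, so that spleen 2 held 97.4% of its summed CPM. Its log2 fold change of the heart over the spleen was -13.25 with an SE of 3.70 (edgeR adjusted p = 0.132). Igkv1-135 was at 2093 CPM in spleen 1 and at 3.38 and 4.10 CPM in the other spleen libraries. Igkv4-59 was at 1559.6 CPM in spleen 3, against 5.58 and 133 CPM in spleen 1 and spleen 2.

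Igkv1-117 was at 3.05, 0.203 and 0 CPM in the heart, at 1.36, 3.40 and 18.0 CPM in the MLN and at 604, 1906 and 1.92 CPM in the spleen, so that heart 1 lay above MLN 1 and spleen 3. Its close relative Igkv1-110, 96.8% identical over the V exon, was at 1743 CPM in spleen 2 and at 4.41 CPM in spleen 1, so the pair did not move as 1 signal. Igkv4-63 was at 0.750 and 0.104 CPM in heart 1 and heart 2, at 1021 CPM in spleen 1 and at most 0.0896 CPM in the other lymphoid libraries. Igkv6-17 reached 0.0398 CPM in heart 2, 52.3 CPM in MLN 3 and 728 CPM in spleen 2. Igkv19-93 was at 2.11, 0 and 0 CPM in the heart, at 765, 0.966 and 6.35 CPM in the MLN and at 2.81 to 9.60 CPM in the spleen.

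The heavy V segments were concentrated more, with a median of 89.9% of the summed CPM in the top library, against 66.5% for kappa V segments. Ighv9-3 (chr12:114140692-114141122, minus strand) was at 1014 CPM in spleen 3 and at most 0.806 CPM in any other library, which is 99.8% of its summed CPM in 1 library. Ighv2-9-1 and Ighv14-3 were at 172 and 125 CPM in the same library and at most 0.644 CPM elsewhere. Ighv1-26 was at 126 CPM in spleen 2, Ighv5-9-1 at 125 CPM in spleen 1, and Ighv1-18 at 87.8 CPM in MLN 1. Ighv1-63 had its 15052 counts in spleen 2 alone and Ighv1-59 its 1234 counts in MLN 3 alone, and Igkv5-37 and Igkv5-45 were over 99% from spleen 2 and spleen 1.

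**Figure D4:**
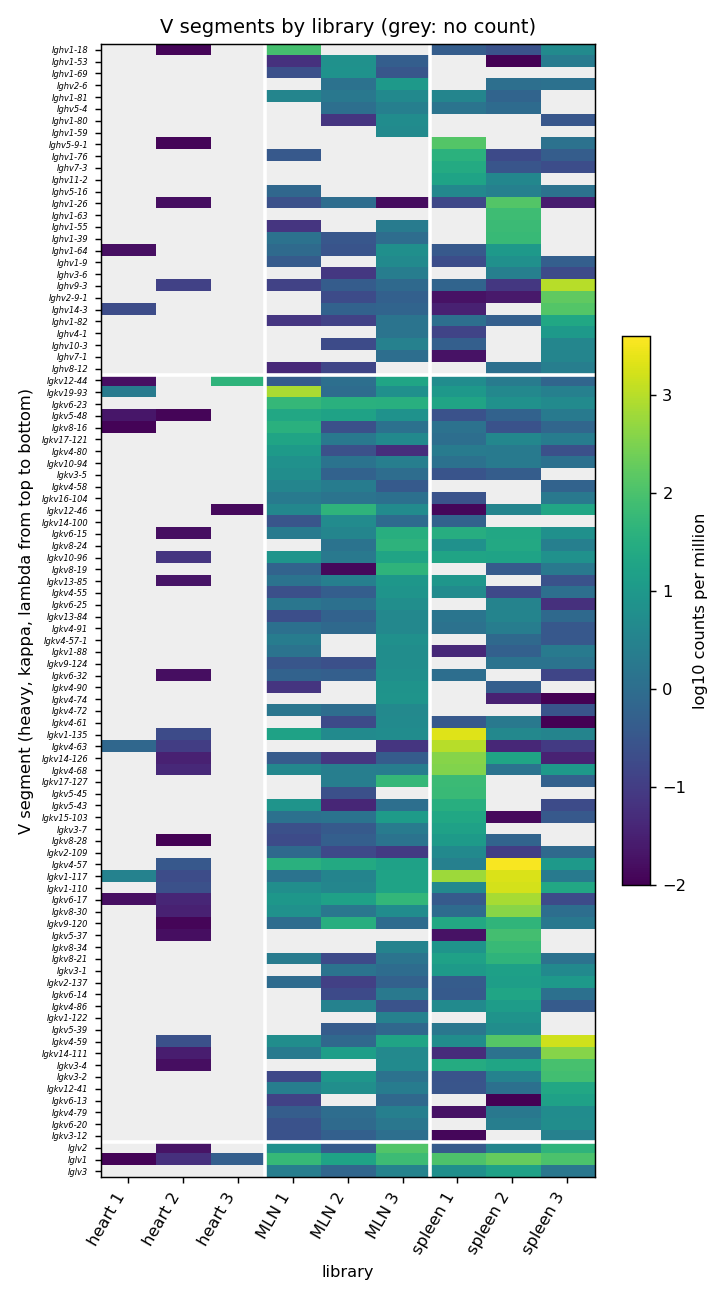
Heat map of log10 CPM of the 96 V members (rows: heavy, kappa and lambda blocks, each sorted by the library with the highest value) in the 9 libraries (columns), with grey for no count. Most rows are bright in 1 lymphoid column, and the heart columns are mostly grey. Heart 2 has counts in 4 heavy, 20 kappa and 2 lambda rows, more than heart 1 or heart 3.

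Such concentration was measured for every V member. The median V member had 71.5% of its summed CPM in its top library, against 42.3% for the 11 constant members and 28.0% for all genes tested. In 79 of 96 V members (82.3%) 1 library held over 50% of the CPM, as it did for 15.4% of all genes, and in 32 (33.3%) over 90%, as it did for 0.59% of genes. The top library was a spleen library for 57 V members (16, 24 and 17 in spleen 1, 2 and 3), an MLN library for 38 (11, 4 and 23 in MLN 1, 2 and 3) and heart 3 for 1, Igkv12-44. The V members were chosen on their sum over libraries, and a segment can reach that sum through 1 library, so no test is attached to these shares.

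Each lymphoid library had its own leading V segments. Among the counts of heavy V members Ighv1-18 held 91.6% in MLN 1, Ighv1-69 32.6% in MLN 2 and Ighv2-6 19.9% in MLN 3. In the spleen Ighv5-9-1 held 57.0% in library 1, Ighv1-26 35.5% in library 2 and Ighv9-3 74.3% in library 3. Over all named heavy V rows the same 6 segments led with lower shares. These were 83.9%, 21.6% and 14.7% in the MLN and 53.4%, 34.7% and 73.5% in the spleen. None of these 6 segments led in another lymphoid library. Among the counts of kappa V members Igkv19-93 held 72.4% in MLN 1, Igkv12-46 16.7% in MLN 2 and Igkv17-127 9.75% in MLN 3. In the spleen Igkv1-135 held 42.9% in library 1, Igkv4-57 38.9% in library 2 and Igkv4-59 68.0% in library 3, again with no leader in common. The widest 95% Wilson interval of the lymphoid shares among members spans 1.33 percentage points to either side. It does not cover the effect of the minimum, which moved the leading heavy V share of MLN 2 much further.

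The leading segment was the same by counts and by counts per kb of exon in all 17 library and locus pairs with counts of heavy or kappa V members, and its share moved by at most 2.85 points. The inverse Simpson index, which gives the number of equally used segments that would be as uneven, was 1.19, 4.42 and 10.3 for heavy V members in the MLN and 2.66, 4.33 and 1.74 in the spleen. Over all named heavy V rows it was 1.42, 8.87 and 17.2 in the MLN and 3.02, 4.52 and 1.77 in the spleen. For kappa V it was 2.49, 8.42 and 1.00 in the heart, 1.88, 11.3 and 20.2 in the MLN and 3.92, 4.05 and 2.03 in the spleen. MLN 3 had the broadest use at both loci, and MLN 1 and spleen 3 the narrowest of the lymphoid libraries. MLN 3 was also the library with the highest B cell marker share (0.596%), Cd79a at 972 CPM, a signalling chain of the B cell receptor, and Dntt and Rag1 at 292 and 22.6 CPM, enzymes of V(D)J recombination in developing lymphocytes. Of the other listed B cell precursor genes, Vpreb3 was also highest there (43.8 CPM), but Rag2 was higher in MLN 1 (7.14 CPM) than in MLN 3 (5.08 CPM). Vpreb1 had no count in MLN 3, and Vpreb2 and Igll1 had none in any library.

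**Figure D5:**
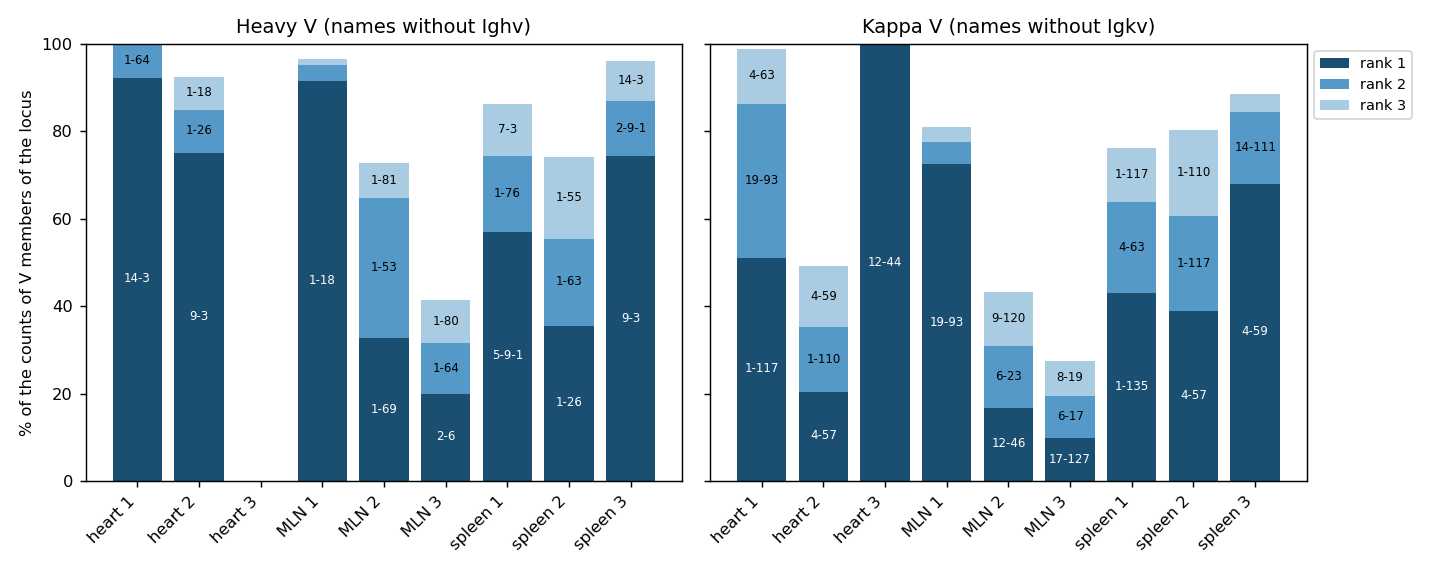
Stacked shares (%) of the 3 leading V members among the counts of heavy V members (left) and kappa V members (right) by library, with the segment's number in its bar. The heavy bars of heart 1 and heart 2 rest on 39 and 40 counts, heart 3 has no count of a heavy V member (its 674 heavy V counts are on rows under the minimum), and the leading kappa bar is tallest in heart 3 (99.97%) and shortest in MLN 3 (9.75%).

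The 3 heart libraries differed in what little they held. Heart 3 had 9704 kappa V counts, of which 9701 were Igkv12-44 (99.97%, 95% Wilson interval 99.9% to 99.99%), 3186 Igha counts and 15156 Igkc counts. Its heavy V counts lay on rows under the minimum, led by Ighv1-78. Igkv12-44 (chr6:69814631-69815154, minus strand) was at 0.0168, 0 and 43.8 CPM in the heart, at 0.436, 1.12 and 19.9 CPM in the MLN and at 5.26, 2.12 and 0.672 CPM in the spleen. It was the only tested member with a positive log2 fold change of the heart over the spleen (2.44, edgeR adjusted p = 0.887). Without heart 3 that log2 fold change was -8.27, and over the MLN it was -9.68 in place of 1.03. Of 14 plasma cell genes 7 were highest in heart 3 among the heart libraries, 4 in heart 2 and 3 in heart 1, and their summed share of counts was 0.0515% in heart 3, against 0.0534% in heart 2 and 0.0468% in heart 1. Jchain, which joins IgA and IgM into polymers, was at 80.7 CPM, against 0 and 0.968 CPM in heart 1 and heart 2, and Tnfrsf17, a survival receptor of plasma cells, at 14.2 CPM, against 0 in both. Mzb1, a chaperone of antibody secretion, was at 4.81 CPM, against 0 and 0.0916 CPM. Others of the list went the other way, with Eaf2 at 0 CPM in heart 3, against 23.0 and 0.374 CPM in heart 1 and heart 2, and Fkbp11 at 16.3 CPM, against 148 and 10.3 CPM. The part of plasma cell RNA in heart 3 was not tested.

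Heart 1 had 1070 kappa V counts, with Igkv1-117 at 51.0% (95% Wilson interval 48.0% to 54.0%), Igkv19-93 at 35.3% and Igkv4-63 at 12.5%. Of these, Igkv19-93 leads MLN 1, Igkv4-63 has rank 2 in spleen 1, and Igkv1-117 has rank 3 in spleen 1 and rank 2 in spleen 2. The source of these counts was not tested. Heart 2 had 427 kappa V counts, spread over 20 segments, led by Igkv4-57 at 20.4% (95% Wilson interval 16.8% to 24.5%), Igkv1-110 at 14.8% and Igkv4-59 at 14.1%, of which the first leads spleen 2 and the last leads spleen 3. For the 15 members other than Ighm with at least 100000 counts in the other 8 libraries, heart 2 held 0 to 16.4 counts for every 100000 counts there, with a median of 10.2 and 1 member at 0, Igkv19-93. Those with a count in heart 2 ranged from 5.76 for Igkv6-17 to 16.4 for Igkv1-110. Heart 1 had no count of 8 of the 15 and up to 230 per 100000, and heart 3 no count of 12 and up to 801. Ighm, at 308, 1201 and 544 per 100000, lay above the range of the 15 in heart 1 and heart 2 and within it in heart 3. Whether the counts of heart 2 came from cells of that library was not tested.

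The members share features that the rule did not use. All 108 were found in the GENCODE vM21 annotation, 96 as functional V genes, 11 as constant genes and 1 as a J gene, and none as a pseudogene. Of the named V rows under the minimum, 60 of 95 kappa and 70 of 157 heavy V rows are annotated as pseudogenes. Kappa V members lie on both strands, 23 on plus and 42 on minus, and the heavy V members all on minus, 177 to 2532 kb from Ighm. The V rows under the minimum lie much alike, so position and strand do not mark the members. Of these rows 52 kappa V lie on plus and 43 on minus, and 155 of 157 heavy V on minus, 152.5 to 2589 kb from Ighm. Of the 96 V members, 49 have another V segment at least 95% identical over the V exon, so reads of these may be split or lost between copies. Merging such groups left 50 kappa and 23 heavy units, and the leading kappa V share became 26.7% in place of 20.4% in heart 2, stayed at 72.4% in MLN 1 and became 68.6% in place of 68.0% in spleen 3. The leader itself changed in some libraries. Igkv1-110 summed with Igkv1-117 led heart 2 and, at 41.5%, spleen 2. A group of 3 segments with Igkv6-23 led MLN 3 at 12.5%. A group of 3 with Ighv1-53 led the counts of heavy V members in MLN 2 at 33.4%. Ighv1-18 summed with Ighv1-26 led both MLN 1 and spleen 2. The short heavy D, heavy J and kappa J segments, with median lengths of 17, 53.5 and 38 bases, held 36, 214 and 487 counts in all.

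Just inside the minimum were Ighv8-12 (1024 counts), Igkv2-109 (1203) and Ighv3-6 (1226), and just outside Igkv3-10 (924), Igkv4-50 (913) and Ighv2-2 (911). None of these 6 had a count in the heart. The 9 members that were not tested failed the filter because too few libraries reached its count, and Ighv5-9-1, Ighv1-63, Ighv1-59, Igkv5-37 and Igkv5-45 named above are among them.

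Other genes of B cells, antibody secretion and antibody recognition were read beside the members. Of 20 B cell genes 2 were called lower in the heart against both lymphoid organs, Blk among them (edgeR adjusted p = 0.0256 against the spleen and 0.0198 against the MLN). Of all genes tested, 0.175% were called lower against the spleen and 0.283% against the MLN. The median log2 fold change of the B cell genes was -5.79 for the heart over the spleen and -6.00 over the MLN, against 0.02 and 0.12 for all genes tested. It was negative for 19 of the 20 in each comparison, and the share of all genes with a negative value is not given here. Of 14 plasma cell genes 0 were called against either organ. Their summed share was 0.0468% to 0.0533% in the heart, 0.0450% to 0.131% in the MLN and 0.354% to 0.980% in the spleen. The genes of this sum also had unlike heart levels. Slamf7 and Prdm1 were at a mean of 162 and 72.7 CPM in the heart, and Mzb1 and Derl3 at 1.64 and 0.0226 CPM. Jchain was at 633, 136 and 52.8 CPM in the MLN and at 2065, 7834 and 1005 CPM in the spleen, and Sdc1, a surface marker of plasma cells, was at 0 to 3.94 CPM in every library. Of 7 B cell precursor genes 4 were tested and 0 called, and of 16 genes of rearrangement, switching and hypermutation 0 were called.

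Of the 11 receptors that bind immunoglobulin 10 were tested, and 1 was called higher in the heart against the spleen, 3 against the MLN and 0 lower. Of all genes tested, 0.614% were called higher against the spleen and 1.1% against the MLN. Fcgr3, an activating IgG receptor of myeloid and natural killer cells, was at 1557, 513 and 728 CPM in the heart, at 27.7, 47.6 and 48.6 CPM in the MLN and at 75.1, 86.9 and 123 CPM in the spleen. It was higher in the heart by 3.29 on the log2 scale against the spleen and by 4.50 against the MLN (edgeR adjusted p = 0.0399 and 0.0193). Fcer1g, its signalling subunit, and Fcgr2b, the inhibitory IgG receptor, passed against the MLN (log2 fold change 4.29 and 2.83, edgeR adjusted p = 0.0230 and 0.0319). Against the spleen they did not (edgeR adjusted p = 0.0704 and 0.0755). The polymeric receptor Pigr had a log2 fold change of -6.45 for the heart over the spleen (edgeR adjusted p = 0.402), and Fcamr, the receptor not tested, was read in spleen 2 alone, at 4.26 CPM. The receptors' summed share was 0.249% to 0.541% in the heart, 0.0246% to 0.0390% in the MLN and 0.0747% to 0.104% in the spleen. Of 12 Treg and T cell genes 1 was called, Ikzf2, a transcription factor of Tregs, lower in the heart against both organs (edgeR adjusted p = 0.0492 and 0.0344). Among all genes tested 0.175% and 0.283% were called lower. The summed share of the 12 genes was 0.244% to 0.333% in the heart, 0.689% to 0.885% in the MLN and 0.644% to 0.775% in the spleen.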

How the data were processed

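RNA sequencing was done on 9 libraries of Tregs, 3 each of the injured heart, the MLN and the spleen, prepared with a SMARTer Ultra Low Input kit, which amplifies cDNA by PCR, per the labels' protocols. The values are raw counts of reads for each gene and library, deposited as a single table without normalization or pooling. Tools were CASAVA 1.8.2, HISAT2 and HTSeq 0.6.0, with build mm10, per the submitters' processing notes. Strand setting, annotation release and treatment of reads that match several segments: not given in the sources used here. Hence reads of near-identical V segments and of overlapping or antisense genes are uncertain. Reads of a rearranged V exon carry mutations and joined J bases that a genome aligner may not place. All 9 columns were used and 0 columns of values left out.

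Counts were tested with edgeR 4.0.16 in R 4.3.3 (quasi-likelihood F test, two-sided, TMM scaling, minimum count 10 and minimum total 15, which left 16609 genes). The model had a term per organ and 6 residual degrees of freedom, with Benjamini-Hochberg adjustment over all genes at a threshold of 0.05. The test was run on simulated counts with known rises in the heart and the same spread for every gene. That setting does not cover falls to an empty or nearly empty group, so it is no support for the calls of members. DESeq2 1.42.0, limma-voom (limma 3.58.1), other scalings and filters, leaving out libraries and a replicate block were alternatives. The SE of a fold change comes from the F statistic and is not given where a group has no count. Folds against an empty group are lower bounds at 3 counts per library, a level of 0.0103 to 0.0192 CPM. The median biological coefficient of variation was 101.5%. No libraries of an organ agreed within sampling noise (the lowest chi-square per degree of freedom was 890.5). Identity of V exons was computed with edlib 1.3.9.post1.

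The members and gene lists were chosen with earlier results of these data known. Genes named are all constant and J members, the 6 heavy, 8 kappa and 3 lambda V segments with the highest mean CPM, every called member, the 6 V segments most concentrated in 1 library, the 3 rows on each side of the minimum, called genes of the lists (1 is not reported here), and a few fixed markers. The leading V segments of each library, Igkv12-44, Igkv14-126, Tnfrsf17, Mzb1, Eaf2, Fkbp11, Pigr, Fcamr, Dntt, Rag1, Rag2, Vpreb1, Vpreb2, Vpreb3, Igll1, Ighv1-78, Ighv1-47, Ighv1-41 and Ighv1-53 were named after their values were seen. So were Blnk, Ebf1, Cd37, Cd72, Slamf7, Prdm1 and Derl3.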

Additional observations from a re-analysis of the deposited data

How the results depend on the processing

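Calls of members depended on the test more than on the scaling. For the heart against the spleen, where 6 members were called, DESeq2 called 63, limma-voom 28 and the fit with a replicate block 0. For the heart against the MLN, where 9 were called, DESeq2 called 62, limma-voom 30 and the replicate block 0. The shares of all genes that DESeq2 and limma-voom called are not given here, so their counts do not set the members apart from other genes. Leaving out 1 library gave 0 to 4 calls against the spleen and 0 to 5 against the MLN. Without heart 2, MLN 3 and spleen 3, chosen after seeing the data, 0 were called in both. For the MLN against the spleen, with 0 calls, DESeq2 called 5 and all other settings 0. DESeq2 and limma-voom also called all of the 6 and all of the 9. The cause of these differences was not tested.

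Other scalings, no filter, a stricter filter and fits to the organs compared gave 5 to 7 calls against the spleen and 6 to 11 against the MLN. Scaling moved the median of all genes for the heart over the MLN to between -0.11 and 0.22 and for the heart over the spleen to between -0.25 and 0.08 (log2), small beside the fold changes of the called members. Same-numbered libraries correlated at -0.127 to 0.114 in their deviations, and 1 of 9 correlated best with its own number. With 3 libraries an organ this cannot decide whether same-numbered libraries share an animal, which the labels do not give. Of 546 alternatives of the fold changes of 29 gene and comparison pairs, 396 gave the same call, 134 lost it, 14 gained it and 2 changed sign. Many of the 396 are constant genes that were not called and stayed so, and only a called pair could lose its call. For the called pairs, 4 of 19 alternatives (Ighg2b against the MLN) to 13 of 19 (Igkv10-94 against the MLN) lost it. The 2 changes of sign were Igha of the heart over the MLN, at 4.51 without MLN 3 and 5.11 without heart 2, MLN 3 and spleen 3, and at -6.36 to 4.51 over all fits without 1 library. Of 141 alternatives of the organ means of shares, effective numbers and V ratios, 140 moved by less than the SD between libraries. Leaving out 1 of 3 libraries cannot move their mean by that SD, so such alternatives were bound to stay within it. For those alternatives the count is no measure of robustness. The 1 alternative that moved further, heavy V counts per 1000 heavy constant counts of the heart, was 17.96 without the minimum of 1000 counts, against 2.02 with it, because rows under the minimum hold most heavy V counts of the heart. Single libraries moved further without the minimum: the effective number of heavy V segments was 3.50 against 1.17 in heart 1, 8.87 against 4.42 in MLN 2 and 17.2 against 10.3 in MLN 3, and Ighv1-41 at 40.7% replaced Ighv14-3 at 92.3% as the leader of heart 1. Heavy V use in the heart rests on 118, 43 and 674 counts over all named rows.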
